A study of Homo sapiens with 16 samples.

Results

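The ZIC and SOX1 neural progenitor genes were described as the peaks listed within 3 windows of the hg19 genome, which hold ZIC4 with ZIC1 (chromosome 3, 147050001 to 147200000), ZIC5 with ZIC2 (chromosome 13, 100590001 to 100660000) and SOX1 (chromosome 13, 112680001 to 112780000). Every peak of 6 deposited lists that met a window was taken, which gave 30 of 114213 peaks. The windows were chosen with earlier values in view, having been selected on strong H3K27ac domains at ZIC4 and ZIC1 and at SOX1 that were listed in TC-32 alone, so that part of the pattern is a description. A preference for TC-32 held in those windows and not in the ZIC5 and ZIC2 window, where TC-71 had the longer and higher-ranked acetylation.

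TC-71 and TC-32 are established Ewing sarcoma cell lines, a tumour of bone and soft tissue in young people in which EWSR1 is usually fused to an ETS gene. The labels give TC-71 as a post-chemotherapy line and TC-32 as a line from diagnosis, both grown in RPMI-1640 with serum. Chromatin immunoprecipitation with sequencing was done in each line for H3K27ac, a mark of active promoters and enhancers, for SMC1, a subunit of the cohesin ring, and for BORIS (CTCFL), a germ line paralog of CTCF, with input beside them, in 16 samples. The 2 samples of a line and antibody share 1 list, so the values carry no error between replicates and the lines were compared without a test; with 1 line per stage of therapy the stage and the line cannot be told apart.

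ZIC1, ZIC2, ZIC4 and ZIC5 encode zinc finger transcription factors that lie in the genome as head-to-head pairs and act in the neural plate border, the dorsal neural tube and the neural crest. ZIC1 and ZIC4 are known for cerebellar development, ZIC2 for division of the forebrain, whose loss in humans gives holoprosencephaly, and ZIC5 for neural crest formation in frog and mouse. SOX1 belongs with SOX2 and SOX3 to the SOXB1 group of high mobility group factors, which keep dividing neural progenitors undifferentiated.

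ZIC1, ZIC4 and SOX1 are genes of the windows with H3K27ac listed in TC-32 alone. ZIC5 and ZIC2 are those of the window acetylated in both lines. To compare base composition, the 250 bases before a RefSeq start are shown for each gene except ZIC4, whose values follow below. The stretches are from RefSeq on GRCh38.p14, whereas the peaks are on hg19, so whether a peak covers these bases was not tested. Each runs 5′ to 3′ on the strand of its gene, with CG dinucleotides in capitals.
ZIC5 (chr13:99971910-99972159, minus strand): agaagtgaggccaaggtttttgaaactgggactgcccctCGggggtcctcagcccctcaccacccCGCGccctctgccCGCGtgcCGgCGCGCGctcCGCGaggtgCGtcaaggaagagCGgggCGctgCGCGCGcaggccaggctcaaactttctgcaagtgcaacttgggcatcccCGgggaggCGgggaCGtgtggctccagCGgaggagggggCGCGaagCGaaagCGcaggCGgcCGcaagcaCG
ZIC2 (chr13:99981534-99981783, plus strand): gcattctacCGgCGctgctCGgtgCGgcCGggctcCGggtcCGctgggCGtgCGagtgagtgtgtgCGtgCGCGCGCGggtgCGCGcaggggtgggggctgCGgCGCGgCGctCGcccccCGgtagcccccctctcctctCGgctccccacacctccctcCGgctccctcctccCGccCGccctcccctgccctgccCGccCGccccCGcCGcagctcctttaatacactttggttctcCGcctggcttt
ZIC1 (chr3:147409115-147409364, plus strand): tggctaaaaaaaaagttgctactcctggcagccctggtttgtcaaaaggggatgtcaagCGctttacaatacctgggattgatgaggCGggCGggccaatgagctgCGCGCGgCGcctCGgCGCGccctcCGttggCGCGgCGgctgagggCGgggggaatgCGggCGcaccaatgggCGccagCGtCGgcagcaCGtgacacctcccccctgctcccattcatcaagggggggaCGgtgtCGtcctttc
SOX1 (chr13:112066899-112067148, plus strand): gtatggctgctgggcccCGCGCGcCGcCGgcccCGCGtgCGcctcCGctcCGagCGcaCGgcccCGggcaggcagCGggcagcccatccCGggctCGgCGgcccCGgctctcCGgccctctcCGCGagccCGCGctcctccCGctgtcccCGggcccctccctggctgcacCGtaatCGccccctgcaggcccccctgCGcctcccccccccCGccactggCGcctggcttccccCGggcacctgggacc

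All 4 stretches shown held more CG dinucleotides than the median promoter. The ZIC5 stretch held 28 CG dinucleotides, the ZIC2 and SOX1 stretches 31 each and the ZIC1 stretch 23, against a median of 11 over 35114 RefSeq promoter stretches of the same length. Their G and C content was 70.4% in ZIC5, 75.6% in ZIC2, 64.4% in ZIC1 and 82.0% in SOX1, against a median of 58.0%. All 5 genes matched the promoter table, with 10 listed starts. The starts not shown were those of ZIC4, with 2, 7, 9 and 16 CG dinucleotides, and 2 other starts of ZIC5, with 12 and 21. In the same order, G and C content was 49.6%, 60.0%, 42.8% and 58.8% in ZIC4, and 61.6% and 64.8% in ZIC5. The ZIC4 starts were thus on both sides of the medians. On either strand, GGAAGGAA (a doubled ETS core, found in 3.06% of all stretches) and CAGCAGG (a ZIC-type site, 8.48%) had 0 matches in all 10. CAGNNGGC (a short core of CTCF-type sites that can overlap the ZIC-type site, 25.5%) had 2 matches in the ZIC5 stretch shown, 1 in an overlapping ZIC5 stretch, 1 in 1 ZIC4 stretch and 2 in the SOX1 stretch. ACAAT (a SOX-type site, 24.6%) had 1 match in the ZIC1 stretch, which reads ttacaata above, and 1 in 1 ZIC4 stretch.

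Acetylation divided the windows. The TC-71 list held 6 H3K27ac domains in the ZIC5 and ZIC2 window and 0 in each of the other windows, whereas the TC-32 list held 2 there, 3 in the ZIC4 and ZIC1 window and 4 in the SOX1 window. Covered sequence was 16.6 kb in TC-71 and 5.54 kb in TC-32 at ZIC5 and ZIC2, or 23.7% of the window in TC-71 and 7.91% in TC-32. At ZIC4 and ZIC1 it was 0 kb in TC-71 and 11.6 kb in TC-32, and at SOX1 0 kb in TC-71 and 29.5 kb in TC-32, or 29.5% of the window in TC-32. The TC-32 preference was limited to the SOX1 window and 1 of the ZIC windows, which had been chosen on strong domains listed in TC-32 alone. No TC-71 domain (0) appeared at ZIC4 and ZIC1 or at SOX1 when the windows were widened by 50 kb.

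**Figure D1:**
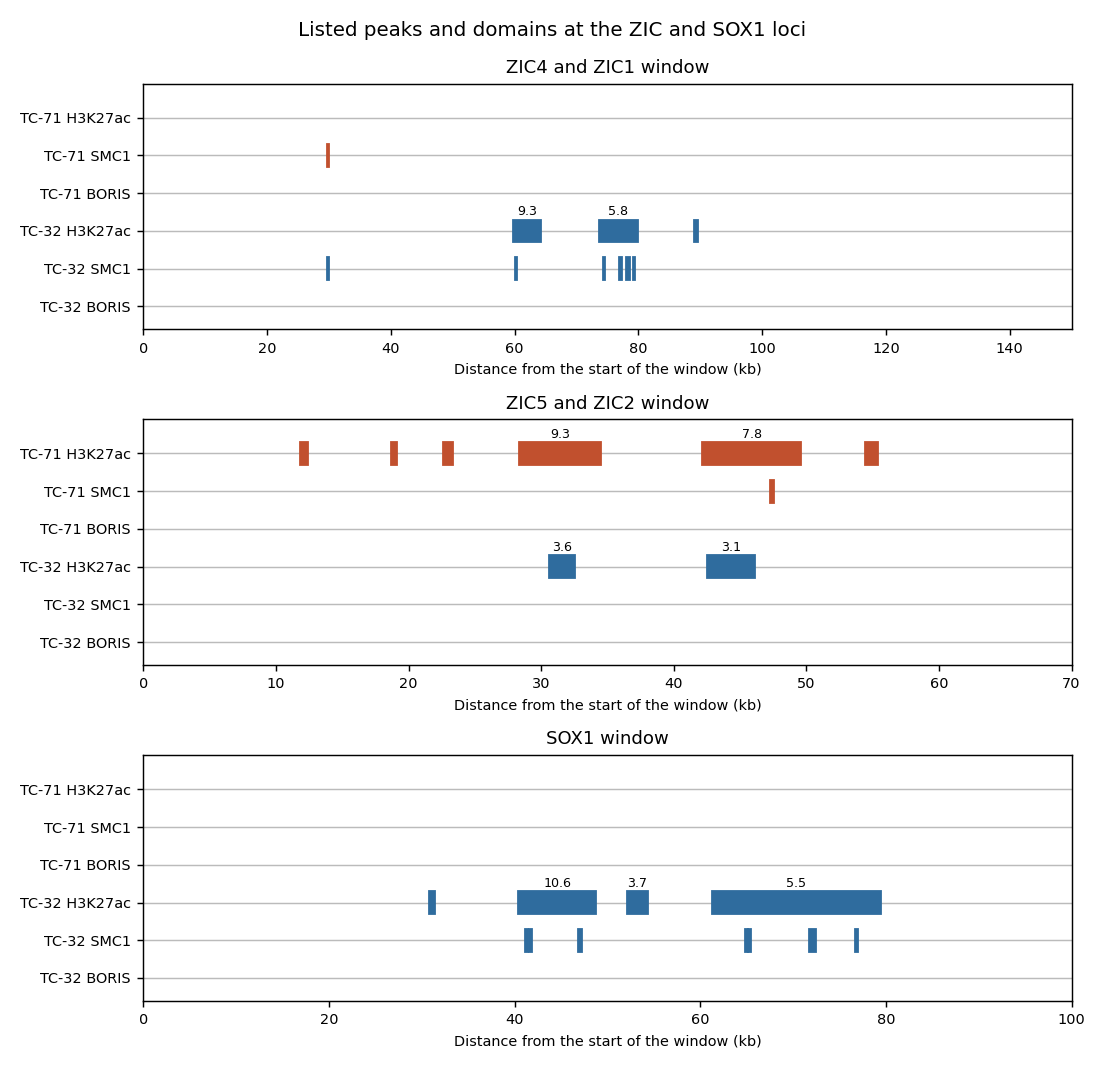
Peaks listed for H3K27ac, SMC1 and BORIS in TC-71 (red, upper rows) and TC-32 (blue, lower rows), by distance from the start of each window in kb; numbers above wide domains are the authors' fold enrichment, and neighbouring SMC1 peaks can merge at this scale. TC-71 rows hold H3K27ac in the ZIC5 and ZIC2 window alone, TC-32 rows hold it in all 3 windows, and BORIS rows are empty.

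In the ZIC5 and ZIC2 window, 2 of the 6 TC-71 domains overlapped a TC-32 domain, and the TC-71 domain was the wider at both places. The first large TC-71 domain (chromosome 13, 100618310 to 100624547) was 6238 bp wide, with an authors' fold enrichment over input of 9.30 and rank 52 of 26334 by −log10 q, the significance by which peaks are ordered within a list. The TC-32 domain inside it (100620585 to 100622523) was 1939 bp wide, with a fold of 3.57 and rank 20492 of 36355. The second large TC-71 domain (100632106 to 100639628) was 7523 bp wide, with a fold of 7.81 and rank 738. The TC-32 domain inside that one (100632538 to 100636133) was 3596 bp wide, with a fold of 3.07 and rank 22392. Both TC-32 domains lay wholly (100%) within a TC-71 domain, of which they covered 31.1% and 47.8%. By rank the lines were far apart: the TC-71 domains were in the top 0.197% and 2.80% of their list, and the TC-32 domains in the top 56.4% and 61.6% of theirs.

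The order of the RefSeq genes along chromosome 13 is ZIC5 and then ZIC2, the order of these domains, but the annotation given is of another build and neither domain was assigned to 1 gene. The other 4 TC-71 domains of the window were weak. They were 464 to 959 bp wide, with folds of 2.66 to 2.89, stood in the lower part of their list and had no TC-32 counterpart. Over the whole list, 32.7% of TC-71 domains had none. With a −log10 q of at least 5 in both lists, the window held 2 TC-71 domains and 1 TC-32 domain, which covered 13.8 kb in TC-71 and 1.94 kb in TC-32.

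The ZIC4 and ZIC1 window was acetylated in TC-32 at 3 places. The highest-ranked was a 4540 bp domain (chromosome 3, 147109721 to 147114260) with a fold of 9.34, rank 500 of 36355. A wider one of 6434 bp followed after 9.30 kb (147123559 to 147129992), with a fold of 5.84 and rank 6735. A short one of 589 bp lay farther right (147139000 to 147139588), with a fold of 3.34, in the lower part of the list. None (0) had a TC-71 counterpart, and the nearest TC-71 domains outside the window were 787 kb to its left and 969 kb to its right. The nearest TC-32 domains outside it were at 29.8 kb and 461 kb.

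At SOX1 the TC-32 acetylation was longer. An 8436 bp domain (chromosome 13, 112720371 to 112728806) had a fold of 10.6 and rank 505 of 36355, and stood beside an 18205 bp domain (112741241 to 112759445) with a fold of 5.54 and rank 6045. Between them lay a 2193 bp domain with a fold of 3.71, and to their left a 678 bp domain with a fold of 2.87. None (0) of the 4 met a TC-71 domain, and the nearest TC-71 domains outside the window were at 825 kb and 461 kb. Of the 19248 TC-32 domains without a TC-71 counterpart, the leading domains of the ZIC4 and ZIC1 window and of SOX1 ranked 5 and 6. Those ranks are what drew attention to these genes, and nothing further is read from them. Over the whole list, 52.9% of TC-32 domains had no TC-71 counterpart. In the 3 windows 7 of the 9 had none, as 3 of 3 at ZIC4 and ZIC1, 4 of 4 at SOX1 and 0 of 2 at ZIC5 and ZIC2. The ZIC4 and ZIC1 window and the SOX1 window were chosen on such domains, so nothing is read from this count.

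**Figure D2:**
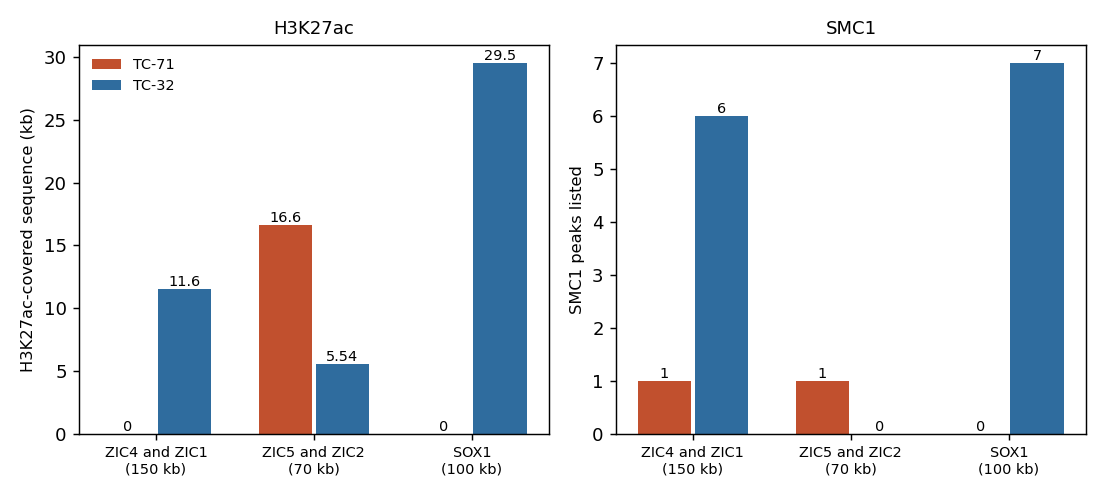
Left, sequence covered by H3K27ac domains (kb), and right, number of SMC1 peaks, in each window for TC-71 (red) and TC-32 (blue), 1 list per bar, with no error bars because the replicates share a list. H3K27ac covers 16.6 kb in TC-71 and 5.54 kb in TC-32 at ZIC5 and ZIC2, while the TC-71 H3K27ac bars of the other windows are at 0.

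Set beside the rest of the genome, the differences in covered sequence were large at SOX1 and at ZIC5 and ZIC2, and less so at ZIC4 and ZIC1. The genome was divided into tiles of each window's length, and those with H3K27ac in either line were kept. At SOX1, TC-71 minus TC-32 was −29.5 kb, and 38 of 15466 tiles of 100 kb (0.246%) were at least as far to the TC-32 side. At ZIC5 and ZIC2 it was 11.1 kb, and 100 of 18898 tiles of 70 kb (0.529%) were at least as far to the TC-71 side. At ZIC4 and ZIC1 it was −11.6 kb, with 573 of 11969 tiles of 150 kb (4.79%) at least as far. The median tile lay slightly to the TC-32 side, by −0.699 kb for 100 kb tiles. Acetylation in TC-32 alone, as at SOX1 and at ZIC4 and ZIC1, was itself common, in 27.4% of 100 kb tiles and in 24.3% of 150 kb tiles, and acetylation in both lines, as at ZIC5 and ZIC2, was found in 60.6% of 70 kb tiles. These shares describe where chosen windows stand and are no test.

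Neighbouring domains were joined over short gaps, at the distance customary for super-enhancers, and each cluster was ranked by its domains' width times fold, added up. In TC-71 the 6 domains at ZIC5 and ZIC2 formed 1 cluster of 43.6 kb, rank 84 of 16831 and among the 670 top clusters, those beyond the point where the curve of ranked sums turns steep. In TC-32 the 2 domains there formed a cluster of 15.5 kb at rank 4746 of 22370, not among the 901 top clusters. The TC-32 clusters at SOX1 (48.7 kb, rank 58) and at ZIC4 and ZIC1 (29.9 kb, rank 382) were top clusters. These windows were chosen on strong TC-32 domains that enter the sums, so the TC-32 ranks there are a description and no further support. With joining over 5 kb, the ZIC4 and ZIC1 domains stayed separate, the best at rank 1027, and were no longer top clusters. Of the 3 TC-71 clusters then formed at ZIC5 and ZIC2, 2 were still top clusters, the best at rank 303, and so were 2 of the 3 TC-32 clusters at SOX1, the best at rank 185.

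**Figure D3:**
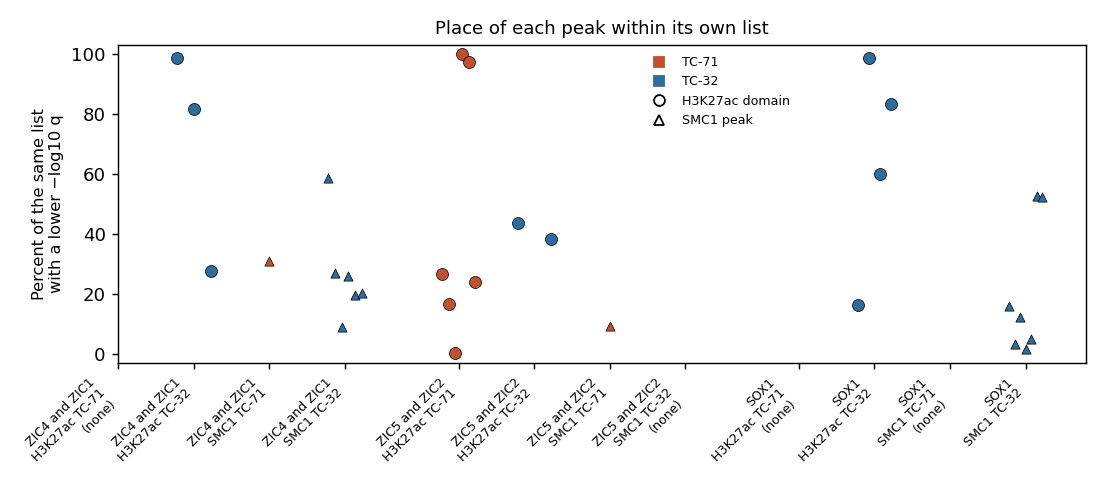
Place of every peak within its own list, as the percent of peaks in that list with a lower −log10 q, for H3K27ac domains (circles) and SMC1 peaks (triangles) of TC-71 (red) and TC-32 (blue) in each window. Both TC-32 domains at ZIC5 and ZIC2 lie below the middle of their list, while the leading domains of TC-71 there and of TC-32 in the other windows lie at the top of theirs. The other windows were chosen on those TC-32 domains, so nothing is read from the place of these.

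SMC1 peaks were more numerous in TC-32 at SOX1 and at ZIC4 and ZIC1, the windows chosen on TC-32 domains. At ZIC5 and ZIC2 they were not. The whole TC-32 SMC1 list was also the longer, with 32720 peaks against 18264 in TC-71. Of 100 kb tiles with SMC1 in either line, 30.9% had it in TC-32 alone, as the SOX1 window did. The windows held 2 TC-71 and 13 TC-32 SMC1 peaks, which lay as 1 in TC-71 and 0 in TC-32 at ZIC5 and ZIC2, 1 in TC-71 and 6 in TC-32 at ZIC4 and ZIC1, and 0 in TC-71 and 7 in TC-32 at SOX1. The site common to both lines lay at the left of the ZIC4 and ZIC1 window, outside acetylation in each. In TC-71 (chromosome 3, 147079730 to 147079944) it had a fold of 6.06 and in TC-32 (147079669 to 147079911) a fold of 6.75, and the summits were 29 bp apart. It was the highest-ranked SMC1 peak of the 6 in that window in TC-32.

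The other TC-32 SMC1 peaks lay inside acetylated domains and had no TC-71 counterpart. At ZIC4 and ZIC1 there were 5, with 1 in the leading domain and 4 in the 6434 bp domain, and folds of 3.97 to 5.05. At SOX1 there were 7, with 3 in the 8436 bp domain and 4 in the 18205 bp domain, and folds of 3.15 to 7.16. The strongest at SOX1 were a 727 bp peak (chromosome 13, 112751697 to 112752423) with a fold of 6.51 and a 288 bp peak (112756637 to 112756924) with a fold of 7.16. Over the whole TC-32 list, 49.7% of SMC1 peaks had no TC-71 counterpart and 25.9% lay in a TC-32 domain, or 36.5% of those without a counterpart. The windows were chosen for their TC-32 domains, so nothing is read from 12 of 13 lying in one.

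Most of these SMC1 peaks ranked low, and the TC-32 list is longer, with 32720 peaks against 18264 in TC-71. When it was reduced to the length of the TC-71 list, 1 TC-32 SMC1 peak was left at ZIC4 and ZIC1, the common site, and 2 at SOX1. In TC-71, the peak of the ZIC5 and ZIC2 window (chromosome 13, 100637247 to 100637394) had a fold of 3.86 and lay inside the 7523 bp domain. The nearest TC-32 SMC1 summit was 68.4 kb away. Over the whole list, 9.69% of TC-71 SMC1 peaks lacked a TC-32 counterpart and 13.6% lay in a TC-71 domain.

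BORIS was not listed in any window, with 0 peaks for TC-71 and 0 for TC-32. The TC-71 list has 534 BORIS peaks and the TC-32 list 6. With lists this short, and no count of other tiles without BORIS, nothing about these genes is read from its absence. The nearest TC-71 BORIS peaks outside the windows were at 581 kb from ZIC5 and ZIC2, 11081 kb from ZIC4 and ZIC1, and 9227 kb from SOX1. Neither list held a BORIS peak in the 500 kb on either side of a window.

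Those flanks also held acetylation. Around ZIC5 and ZIC2, the flanks held 24 TC-71 and 19 TC-32 domains, of which 13 in each line had a counterpart, leaving 11 TC-71 and 6 TC-32 domains without one, where the whole lists had 32.7% of TC-71 and 52.9% of TC-32 domains without one. Around ZIC4 and ZIC1, they held 0 TC-71 and 7 TC-32 domains, and around SOX1 1 TC-71 and 5 TC-32 domains. The common domain near SOX1 was strong in both lines, in TC-71 (chromosome 13, 113241437 to 113243270) with a fold of 8.68 and in TC-32 (113241413 to 113243022) with a fold of 9.07. Copy number was not analysed here, and its part in the result was not tested.

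At 10 other SOX and neural progenitor genes, the lines did not differ in whether H3K27ac was listed at 7, but 4 of these 7 had none in either line. The 10 genes (SOX2, SOX3, SOX21, PAX6, OTX1, OTX2, POU3F2, POU3F3, LHX2 and NES) were described in windows of 100 kb, placed on hg19 from general knowledge of the genes' positions and not checked against an hg19 annotation. H3K27ac was listed in TC-71 alone at 1 gene, in TC-32 alone at 2, in both lines at 3 and in neither at 4. Of 100 kb tiles with H3K27ac in either line, 8.42% had it in TC-71 alone, 27.4% in TC-32 alone and 64.2% in both. Tiles without H3K27ac are left out of these shares, which therefore stand beside only the genes with a listed domain. SOX3, a SOXB1 relative of SOX1, had 0 kb in either line, as did SOX21, POU3F3 and NES, the gene of the progenitor filament nestin.

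SOX2, the SOXB1 relative of SOX1 that also sustains pluripotent cells, was the gene with acetylation in TC-71 alone, at 11.6 kb in TC-71 and 0 kb in TC-32. Its main TC-71 domain (chromosome 3, 181427118 to 181436765) was 9648 bp wide with a fold of 5.46. SMC1 was listed at 3 sites there in TC-71 and at 3 in TC-32, each with a counterpart, so cohesin did not differ in listing as acetylation did. SOX1 and SOX2 windows were thus listed as acetylated in opposite lines, though the SOX1 window was chosen on its TC-32 acetylation. The leading TC-32 domain at SOX1 stood in the top 1.39% of its list. The TC-71 domains at SOX2 stood in the top 24.9%, 62.6% and 93.7% of theirs.

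Genes with TC-32 acetylation alone were the LIM homeobox factor gene LHX2, with 0 kb in TC-71 and 2.02 kb in TC-32, and OTX2, with 0 kb in TC-71 and 0.308 kb in TC-32. The OTX2 domain had a −log10 q of 3.56, below the cut of 5 used as an alternative. The LHX2 domains had a −log10 q of 13.4, 3.28 and 2.40. POU3F2, a POU factor of neural progenitors, was acetylated in both lines, over 13.6 kb in TC-71 and 23.97 kb in TC-32. PAX6, a regulator of eye and forebrain, had 4.18 kb in TC-71 and 8.21 kb in TC-32. OTX1 had 2.79 kb in TC-71 and 1.80 kb in TC-32. SMC1 was listed in both lines at 7 of the 10 genes and in neither at 3, with 0 in 1 line alone; of 100 kb tiles with SMC1 in either line, 3.13% had it in TC-71 alone and 30.9% in TC-32 alone. BORIS was listed in TC-71 near NES (2 peaks, folds 7.78 and 6.86), and at none (0) of the 10 genes in TC-32. The BORIS lists are short, as given above, so nothing is read from this.

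**Figure D4:**
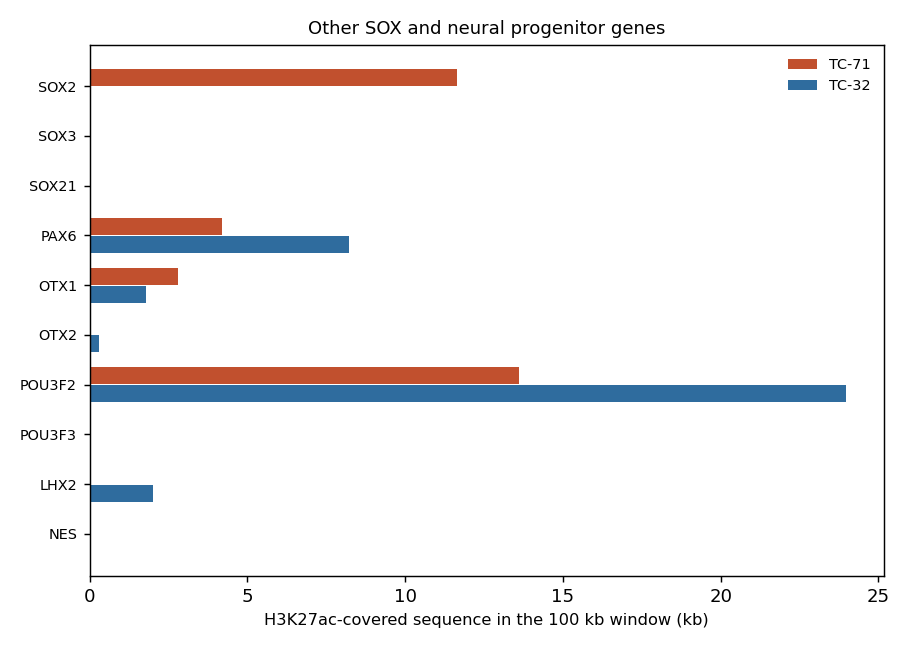
Sequence covered by H3K27ac domains (kb) in 100 kb windows at 10 other genes, for TC-71 (red, upper bar) and TC-32 (blue, lower bar). SOX2 has a bar in TC-71 alone, LHX2 and OTX2 have one in TC-32 alone, and 4 genes have none.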

How the data were processed

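Peak lists of TC-71 and TC-32 for H3K27ac, SMC1 and BORIS were used, 1 per line and antibody. The submitters' processing notes give MACS2 2.1.1, STAR 2.5.1b, deepTools 2.2.4, Picard and SAMtools 1.3.1 with the build hg19, without roles or settings, and how replicates were pooled is not given in the sources used here. The deposited lists hold a score (10 times the −log10 q), a fold enrichment ratio over input, a −log10 p-value and a −log10 q-value per peak, as the authors made them, and these were used to describe and rank peaks within a list. A deeper library can give a longer list, but read depth is unknown and its part in the list lengths was not tested.

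Intervals with several summits were counted once, with the values of the highest summit, on chromosomes 1 to 22 and X. Every interval ended within its hg19 chromosome. Overlap meant at least 1 bp. All peaks meeting a window were named, and the 10 other genes are those reported of a longer fixed list, whose other items are not reported here. Members and lists were chosen with earlier results of these data known. No test was made, since each list pools its replicates. The RefSeq tables (GRCh38.p14) gave gene order and promoter sequences only. The overlap code was tested on 4000 simulated intervals with 0 wrong calls. Analyses used Python 3.11.15, numpy 2.4.6, pandas 2.3.3 and matplotlib 3.10.9.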

Additional observations from a re-analysis of the deposited data

How the results depend on the processing

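No paired analysis was possible because both samples of a line and antibody share 1 list, and for the same reason no replicate could be left out. Of 136 alternative values for 40 counts, lengths and ranks, 116 stayed within 1.5 times the reported value and 20 moved. Of the 136, 56 belong to results reported as 0, and a stricter q or a shorter list cannot raise a count of 0 peaks. Of the other 80, 61 stayed and 19 moved. Some of the 61 could not move either. The TC-71 lists are the shorter, so lists of equal length leave TC-71 values unchanged. A domain or peak with no overlap at all also stays without a counterpart when 50% must be covered. H3K27ac in TC-32 covered 28.8 to 29.5 kb at SOX1 and 10.97 to 16.5 kb at ZIC4 and ZIC1 across the following settings. They were a −log10 q of at least 5, lists of equal length and windows widened by 50 kb. These windows were chosen on strong TC-32 domains, with a leading −log10 q of 50.1 at SOX1 and 50.3 at ZIC4 and ZIC1. Such domains could not be lost at these settings, so nothing is read from their staying listed. The absence of H3K27ac there from the TC-71 list could change only with the wider windows, where 0 TC-71 domains were still listed. When −log10 q had to reach 5, the ZIC5 and ZIC2 window held 2 TC-71 domains, 1 of them without a counterpart, and 1 TC-32 domain covering 1.94 kb. The SOX1 window then held 4 TC-32 SMC1 peaks, with 4 in a domain and 4 without a counterpart. With lists of equal length, the ZIC4 and ZIC1 window held 1 TC-32 SMC1 peak, with 0 in a domain and 0 without a counterpart, and the SOX1 window held 2, with 2 in a domain and 2 without a counterpart, since removing low-ranked TC-32 peaks lowers these counts by construction. With windows widened by 50 kb, ZIC5 and ZIC2 had 3 TC-71 SMC1 peaks, 2 without a counterpart, and 1 TC-32 SMC1 peak. When 50% of a domain had to be covered, 6 TC-71 domains at ZIC5 and ZIC2 lacked a counterpart, and 0 of the TC-32 domains. Joining domains over 5 kb gave best cluster ranks of 303 (TC-71) and 8467 (TC-32) at ZIC5 and ZIC2, 1027 (TC-32) at ZIC4 and ZIC1 and 185 (TC-32) at SOX1, from fewer domains per cluster. A list of peaks cannot tell a weaker signal from one below its threshold, so 0 domains is not 0 acetylation.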

Other observations

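The flanks of the ZIC4 and ZIC1 window held acetylation in TC-32 that the window itself did not include. A 4.95 kb TC-32 domain (chromosome 3, 147015292 to 147020240) had a fold of 4.44, and on the other side a 2.73 kb domain (147662623 to 147665354) had a fold of 5.88. With 5 weaker ones these made 7 TC-32 domains, none of which (0) had a TC-71 counterpart, while 1 of the 5 TC-32 SMC1 peaks in these flanks did. Over the whole TC-32 lists, 52.9% of H3K27ac domains and 49.7% of SMC1 peaks had no counterpart, so nothing particular is read from these counts.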
